A study of Mus musculus with 12 samples.

Results

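The regions described here are stretches of the mouse genome where CpGs lie close together at the ends of genes and carry almost no methylation in the heart. Each is a 500 bp tile on an autosome that holds 10 or more measured cytosines, has at least 1 of them within 1 kb of either end of a protein-coding gene, and has a mean methylation under 5% over all 12 mice. In all, 3751 tiles met these conditions, of 4313 tiles with 10 or more sites at a gene end (87.0%) and of 75016 autosomal tiles with any complete site. They held 60551 of the 306534 autosomal sites with a value in every mouse (19.8%) and touched 3681 genes of the 4129 whose ends had a tile that dense. The tiles were chosen by their mean level over the 12 mice, so that low level is a description and is not tested.

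Methylation was measured by reduced representation bisulfite sequencing (RRBS) of left ventricle DNA from FVB/N wild-type offspring aged 3 weeks. Their mothers ate a high-fat diet, written HFD, or regular chow, written RD. Feeding began at the age of 6 weeks, mating to RD-fed males followed after 8 weeks of feeding, and the mothers stayed on their diet. The groups were 3 HFD female, 3 HFD male, 4 RD female and 2 RD male offspring, named here by maternal diet, sex and the number in their labels. How many mothers or litters they came from is not given in the labels, so p-values measure the spread between these mice. Libraries 2 to 8 were HFD and libraries 9 to 14 were RD, so library order and diet cannot be told apart.

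CpG islands are GC-rich stretches in which CpG dinucleotides are far more frequent than in the rest of the genome. They cover the starts of most housekeeping and many developmental genes and stay free of methylation in nearly all normal tissues, while sparse CpGs elsewhere are mostly methylated. Germline-specific and imprinted genes are the classic exceptions, with CpG-rich promoters that can be methylated in somatic cells. In RRBS the enzyme MspI cuts at CCGG, which draws the reads toward such dense regions, and bisulfite leaves methylated cytosines intact while unmethylated ones are read as thymine.

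The 250 bases before the start of 6 genes show what such regions look like. Letters are from RefSeq on GRCm38.p6, which is the C57BL/6J reference and not FVB/N, and run 5′ to 3′ on the gene's strand. Capitals mark the CpGs measured in all 12 mice. Isl1 and Agps stand for a developmental and a housekeeping gene, Copb2, Nacc2 and Rpap1 carry results given further on, and Slc25a31 is a methylated germline promoter that is no member, chosen for contrast after its values were seen.
Isl1, chr13:116309689-116309938, minus strand: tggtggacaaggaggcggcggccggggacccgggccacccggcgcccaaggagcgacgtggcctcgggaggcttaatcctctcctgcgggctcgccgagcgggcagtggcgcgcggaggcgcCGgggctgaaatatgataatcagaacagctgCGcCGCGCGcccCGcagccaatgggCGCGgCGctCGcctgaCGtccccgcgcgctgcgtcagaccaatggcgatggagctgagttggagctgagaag
Agps, chr2:75831927-75832176, plus strand: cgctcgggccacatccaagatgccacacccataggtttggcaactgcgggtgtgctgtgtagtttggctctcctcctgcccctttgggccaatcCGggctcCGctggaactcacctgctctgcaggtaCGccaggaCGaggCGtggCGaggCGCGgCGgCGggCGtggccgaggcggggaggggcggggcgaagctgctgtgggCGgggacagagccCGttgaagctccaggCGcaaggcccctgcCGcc
Copb2, chr9:98563481-98563730, plus strand: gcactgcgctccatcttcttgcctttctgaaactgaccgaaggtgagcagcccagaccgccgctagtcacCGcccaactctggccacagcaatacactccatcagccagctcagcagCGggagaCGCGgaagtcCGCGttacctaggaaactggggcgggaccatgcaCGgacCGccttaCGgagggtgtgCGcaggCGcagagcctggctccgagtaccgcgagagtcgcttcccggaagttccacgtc
Nacc2, chr2:26122812-26123061, minus strand: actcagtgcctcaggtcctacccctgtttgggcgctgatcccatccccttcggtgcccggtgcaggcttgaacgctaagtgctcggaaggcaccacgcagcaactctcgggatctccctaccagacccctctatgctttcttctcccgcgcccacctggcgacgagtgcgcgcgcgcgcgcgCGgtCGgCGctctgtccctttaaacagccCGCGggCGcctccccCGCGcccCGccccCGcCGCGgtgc
Rpap1, chr2:119787538-119787787, minus strand: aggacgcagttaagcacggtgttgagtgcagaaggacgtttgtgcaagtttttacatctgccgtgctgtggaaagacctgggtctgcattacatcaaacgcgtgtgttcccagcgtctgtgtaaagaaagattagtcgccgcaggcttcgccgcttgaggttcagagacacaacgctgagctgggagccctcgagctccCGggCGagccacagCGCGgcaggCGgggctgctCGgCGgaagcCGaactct
Slc25a31, chr3:40708621-40708870, plus strand: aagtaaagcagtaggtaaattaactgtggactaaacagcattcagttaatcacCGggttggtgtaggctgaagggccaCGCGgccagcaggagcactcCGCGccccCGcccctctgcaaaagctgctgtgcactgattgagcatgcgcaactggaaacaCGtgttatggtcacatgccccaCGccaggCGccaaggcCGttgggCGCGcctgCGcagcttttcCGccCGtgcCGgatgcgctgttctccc

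In these windows the measured CpGs averaged 1.02% at Isl1 (11 of 33 CpGs measured), 1.43% at Agps (15 of 22), 1.77% at Copb2 (11 of 22), 1.55% at Nacc2 (12 of 30) and 4.72% at Rpap1 (8 of 21). At Slc25a31, which encodes an ADP/ATP carrier of germ cells, 16 of 18 CpGs were measured and averaged 77.9%, with single CpGs from 47.2% to 93.7%. Slc25a31 had the fewest CpGs of the 6 windows. The ratio of observed to expected CpGs was 0.81 at Slc25a31, 0.73 at Agps and 1.05 at Isl1.

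Across the genes with a matched promoter sequence, starts beside an unmethylated tile were richer in CpG than others. The 2829 such genes had a median of 25 CpGs in the promoter window, from 250 bases before to 50 after the start, a GC content of 64.7% and an observed-to-expected ratio of 0.83. Starts whose dense tiles were all at 5% or more (256 genes) had a median of 20 CpGs, and those whose dense tiles were all at 20% or more (62 genes) had 15.5. All 16457 autosomal protein-coding genes with a promoter sequence had 14. A part of this follows from the choice of tiles with 10 or more measured sites, which the 13372 genes without such a tile at their start (median 10 CpGs) did not have.

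Short motifs were searched on both strands of the same windows. The GC box GGGCGG, bound by SP-family factors, was in 72.5% of promoters beside an unmethylated tile and in 47.3% of all promoters. The ETS core CCGGAA was in 28.3% against 19.6% and the E box CACGTG in 11.5% against 7.97%. The cyclic AMP response element TGACGTCA was in 3.25% against 2.40%. The TATA box TATAAA was in 5.83% against 13.5%, and the CCAAT box CCAAT in 35.8% against 39.1%. In the 256 promoters whose dense measured tiles were all at 5% or more, the TATA box (6.64%) and the CCAAT box (34.8%) were near these shares. The GC box (63.7%), the ETS core (17.2%) and the E box (8.98%) were in fewer of them, while among the 62 at 20% or more the E box was in 17.7%, above the 11.5%. The assay cuts at the MspI site CCGG, which lies within CCGGAA, and so favours promoters that hold it. CCGG was in 91.6% of promoters beside an unmethylated tile and in 63.3% of all promoters, and CGCG in 83.0% against 50.8%. Among the 256 promoters at 5% or more the shares were 84.8% for CCGG and 71.9% for CGCG. Among the 62 at 20% or more they were 80.6% and 54.8%. These are matches of letters, described and not tested, and several of these motifs hold a CpG themselves.

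Unmethylated tiles were a feature of gene starts far more than of gene stops. Of the dense tiles within 1 kb of a start only, 2715 of 3030 (89.6%) were under 5%. Of those within 1 kb of a stop only, 72 of 164 (43.9%) were, and 127 of 149 (85.2%) near both kinds of end were. For the other 970 tiles, 837 of them members, the strand of a nearby gene was not matched. Unmethylated tiles by a stop alone also had a higher median level, 2.76%, than those by a start alone, 1.41%. Over all complete sites, the mean was 4.45% in the 250 bp after a start and 4.62% in the 250 bp before it. It rose to 10.3% at 500 to 750 bp upstream, 24.0% at 750 to 1000 bp upstream and 50.1% at 2750 to 3000 bp upstream. The rise on the gene side was slower, with 5.12% at 500 to 750 bp and 12.3% at 1250 to 1500 bp. In the 250 bp before a stop the mean was 45.1%, and sites inside unmethylated tiles made up 17.5% of those measured there, against 58.5% in the 250 bp after a start.

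**Figure D1:**
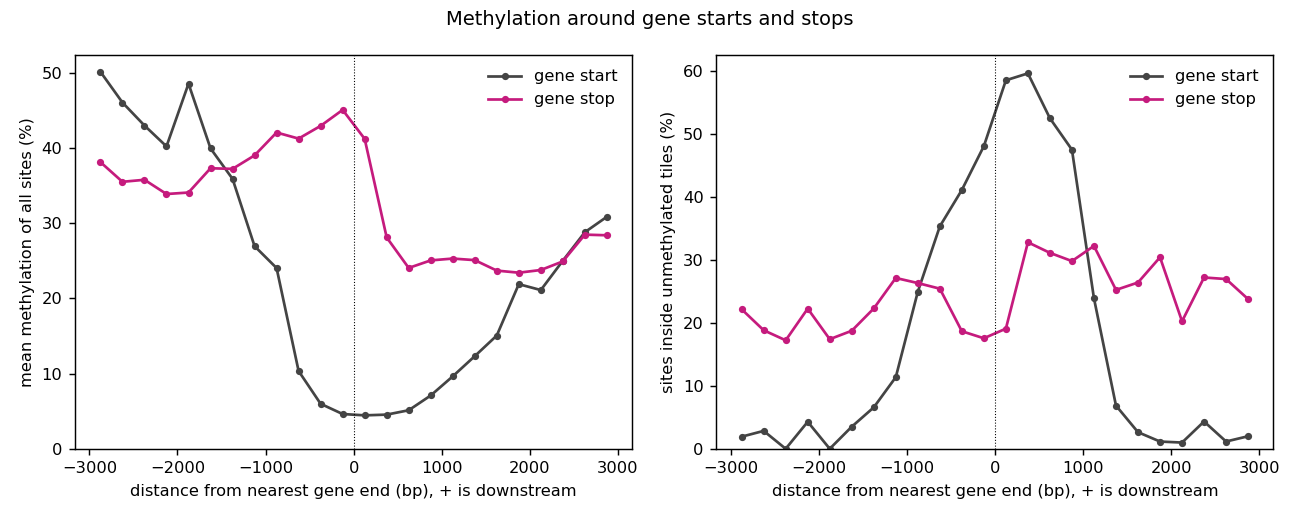
Left, mean methylation (%) of all complete autosomal sites by distance (bp, in steps of 250) from the nearest gene start or stop; right, the share of those sites (%) that lie in the unmethylated tiles. Starts sit in a trough of about 4.45% that is steeper upstream than downstream, while sites just before stops average 45.1%.

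Most members stood alone. The 3751 tiles formed 3290 runs, of which 2856 were a single tile, 407 were 2 neighbouring tiles and 27 were 3, the longest. Among the runs of 3 were those at Cct7 and Pradc1 (85 sites, mean 1.55%; Cct7 encodes a chaperonin subunit), Fgf3 (84 sites, 2.07%; a fibroblast growth factor), Ago2 (47 sites, 1.17%; the slicer of RNA interference) and Insm1 (46 sites, 1.22%; a zinc finger factor of neuroendocrine cells). Measured neighbours, which are tiles with 3 or more sites right beside a member, numbered 2596. They averaged 3.25%, with a median of 1.79%, and 86.1% of them were under 5% as well. Methylation then rose with distance, to a mean of 7.69% at the next tile but 1, 17.2% at the third tile, 37.0% at the fifth and 43.6% at the tenth. Measured neighbours fell to 126 at the tenth, so these means come from different sets of tiles. The profile was alike in every mouse, with a mean at the tenth tile between 42.8% in HFD female 3 and 44.4% in HFD male 3.

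**Figure D2:**
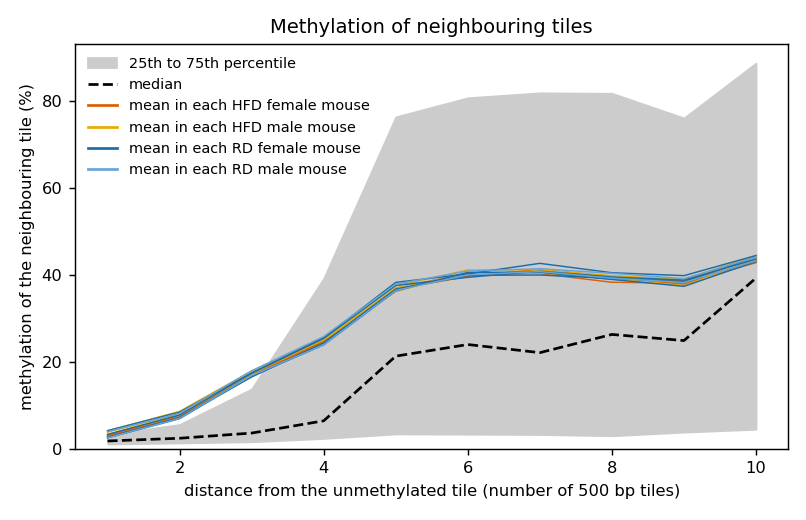
Methylation (%) of tiles 1 to 10 steps of 500 bp from an unmethylated tile: a line for the mean in each of the 12 mice, a dashed line for the median and grey for the middle 50% of tiles over all mice. The 12 lines lie close together and climb from about 3.25% to about 43.6%.

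A sharp edge was rare where a neighbour was measured. Of the 2596 measured neighbours right beside a member, 0.385% were at 50% or more, beside 10 members. Other flanks could not be judged. The tile at Myg1, which encodes an exonuclease, averaged 1.44% beside a tile of 70.1%, and the tile at Plpp4, a lipid phosphatase gene, 3.06% beside 67.4%. Oprd1, the delta opioid receptor gene, had 2.64% beside 63.9%. Cdk5, a kinase of neurons, had 4.47% beside 60.4%, the highest level among the 10 members.

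The members' own levels were low and skewed. The median tile mean was 1.43%, with 5% of tiles below 0.524% and 5% above 3.87%. Of the 3751, 1087 were under 1%, 1540 from 1% to 2%, 630 from 2% to 3%, 339 from 3% to 4% and 155 from 4% to 5%. The limit of 5% fell on the tail of this distribution and not in a gap, since another 103 gene-end tiles lay from 5% to 6%. A second, smaller group was methylated, with 67 gene-end tiles at 80% or more against 44 from 50% to 80%. The tiles just inside the limit were at Ubb (4.99%; a ubiquitin gene), Sestd1 (4.99%), Zfp354a (4.99%), 3110040N11Rik (4.98%) and F3 (4.98%; tissue factor). Just outside were Hmgb1 (5.00%; a chromatin protein), D130043K22Rik (5.00%), Myl12b (5.01%; a myosin light chain) and the tile shared by Vps26b and Ncapd3 (5.01%).

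The lowest tiles were at Cnih4 (0.0877%; cargo export from the endoplasmic reticulum), Twsg1 (0.123%; a modulator of BMP signals) and Nudt3 (0.125%; a hydrolase of inositol pyrophosphates). At Cnih4, 11 mice were listed at 0 and HFD male 4 had 1.05%. The tiles with the most sites were at Trank1 (63 sites, 3.32%), Eif2ak3 (61 sites, 1.84%; the PERK kinase of the unfolded protein response), Gab1 (50 sites, 1.06%; an adaptor below receptor kinases), Foxq1 (49 sites, 1.78%; a forkhead factor) and Agps (49 sites, 2.50%; an enzyme of ether lipid synthesis). These 5 tiles, with the most sites behind each value, gave diet differences within 1 point. At Trank1 the HFD mice had a lowest, median and highest value of 2.38%, 3.78% and 5.15% and the RD mice 1.86%, 2.93% and 4.13%, so the groups overlapped.

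Most single sites were low, which follows in large part from the limit on the tile mean. Of the 60551 sites, 3627 (5.99%) were listed at 0 in every mouse and 25812 had a mean above 0 and under 1%. Another 3541 (5.85%) lay from 5% to 10%, 229 from 10% to 20%, and 15 reached 20%. In 1974 members (52.6%) every site had a mean under 5%, and each of the others held at least 1 site of 5% or more. A few sites stood far above their neighbours in the same tile. At 2900026A02Rik the site at chr5:113221184 averaged 43.1%, ranging from 34.1% to 69.0% over the 12 mice, while the other 18 sites of the tile had a median of 1.64%. At Eid2b, a differentiation inhibitor gene, neighbouring sites at chr7:28278275 and chr7:28278262 averaged 36.5% and 29.7% beside a median of 1.46%. At Irx3, an Iroquois homeobox gene of the ventricular conduction system, the site at chr8:91797512 averaged 35.2% and ranged from 28.4% to 46.0%. The other 10 sites of the Irx3 tile had a median of 1.03% and none above 3.96%. At Creg2 the site at chr1:39651361 averaged 32.2% beside a median of 0.589%. These 5 sites were raised in each of the 12 mice, with a lowest single value of 9.09%. Whether FVB/N carries a different base there was not tested.

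CpGs inside the enzyme's own recognition letters were higher than their neighbours. In the promoter windows 10805 member sites could be placed on the sequence. The 1191 in a CCGG averaged 4.34% and the 9614 others 1.28%. Of the 578 sites at 5% or more, 317 (54.8%) were in a CCGG, although only 11.02% of all the sites were. In each of the 12 mice the CCGG sites were higher, at 3.75% to 5.13% against 0.689% to 1.95%. In gene-end tiles of 80% or more the same split gave 89.6% for 29 CCGG sites and 92.4% for 92 others, so the gap there was in the other direction. A CCGG site lies at the end of an MspI fragment; what part that plays in its value was not tested. The strand made no such difference, with 1.61% for sites on the C and 1.63% for sites on the G of the CpG.

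Levels over the members differed more between mice than between diets. The mean of the 3751 tile means was 1.60%, 1.32% and 1.46% in HFD females 2, 3 and 4, and 1.80%, 2.32% and 2.17% in HFD males 2, 3 and 4. It was 2.33%, 1.73%, 1.21% and 1.11% in RD females 1 to 4, and 1.17% and 2.21% in RD males 1 and 2. RD female 1 and HFD male 3 were the highest mice and RD female 4 the lowest, and the diets overlapped along nearly their whole range. By diet the means were 1.78% ± 0.399 (SD, n = 6) for HFD and 1.62% ± 0.546 (SD, n = 6) for RD, a difference of 0.153 points. With 1 mouse left out the difference ran from 0.0436 points without HFD male 3 to 0.293 points without RD female 1. By sex they were 1.54% ± 0.410 (SD, n = 7) for females against 1.93% ± 0.471 (SD, n = 5) for males. Dense unmethylated tiles away from gene ends (1260 tiles) moved along, with 2.16% ± 0.393 in HFD and 1.97% ± 0.548 in RD, and 1.93% ± 0.417 in females and 2.26% ± 0.504 in males. RD female 1, with 2.73%, and HFD male 3, with 2.76%, were also the highest mice in those tiles.

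The share of member sites listed at 0 did separate the diets, though narrowly. It was 46.2% to 59.2% in the 6 HFD mice, with a median of 54.5%, and 59.4% to 70.2% in the 6 RD mice, with a median of 67.5%. Among the CCGG sites the separation was wider, with 11.6% to 15.9% at 0 in HFD and 22.1% to 38.7% in RD. A share at 0 depends on how many reads cover a site as well as on its methylation, and the number of reads per site is not in the table used here. Mean levels at CCGG sites overlapped, at 3.91% to 5.13% in HFD and 3.75% to 4.91% in RD. The part of read depth in the shares at 0 was not tested.

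**Figure D3:**
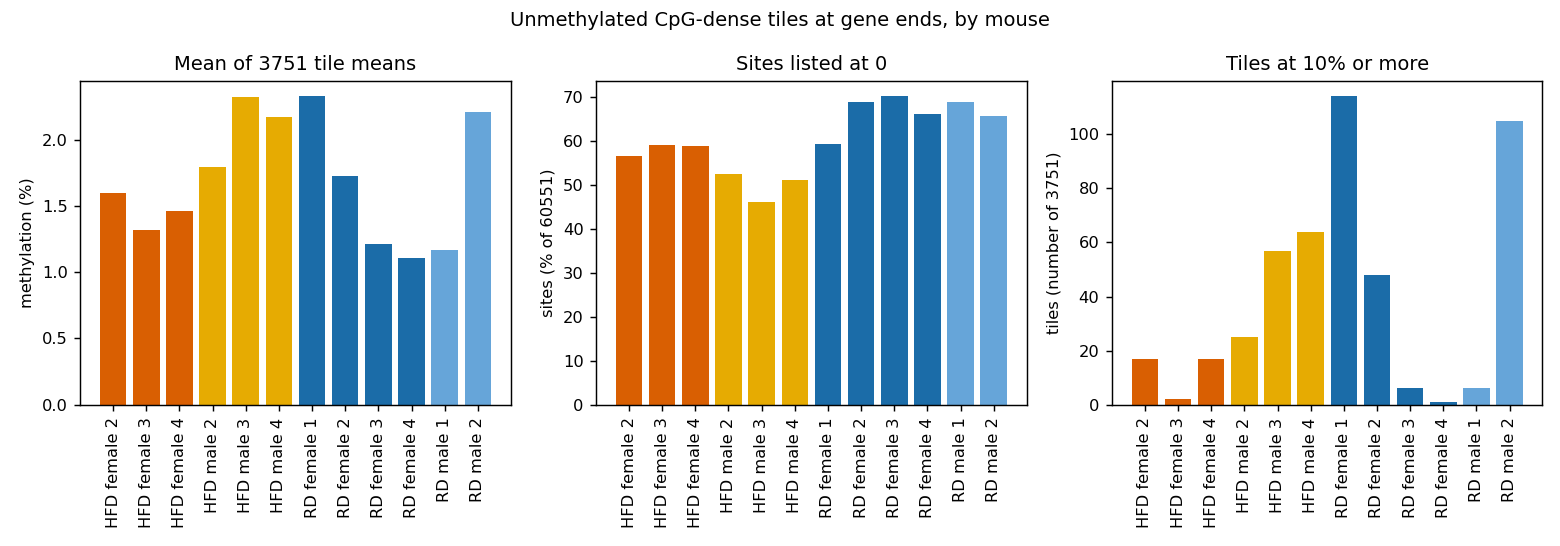
Bars give, for each of the 12 mice, the mean of the 3751 tile means (%), the share of the 60551 member sites listed at 0 (%) and the number of member tiles at 10% or more. Means overlap between the diets, the share at 0 is below 59.3% in HFD and above it in RD, and RD female 1 and RD male 2 hold the most tiles at 10% or more.

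Some members were raised in a single mouse. In 2308 members (61.5%) all 12 mice were under 5%, and in 3379 no mouse reached 10%. A single mouse reached 10% in 293 members, and 2 to 4 mice did in 79. RD female 1 had 114 such tiles and RD male 2 had 105, while RD female 4 had 1 and HFD female 3 had 2. In 78 of those of RD female 1 and 85 of those of RD male 2, no other mouse reached 10%. The spread between mice of a group rose with the level, from a median residual SD of 0.568 points in tiles under 1% to 3.18 points in tiles from 4% to 5%. It was 1.08 points over all members, against 1.15 in unmethylated tiles away from gene ends and 4.22 in gene-end tiles from 5% to 20%.

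The 5 members with the largest residual SD, named for that spread alone, were each raised in 1 to 3 mice. At Tmtc1, which encodes a mannosyltransferase of the endoplasmic reticulum, RD female 1 had 25.9% and HFD male 4 had 13.03%, and the other 10 mice were at 5.11% or less. At 2210016F16Rik, RD female 2 had 27.2% and HFD male 3 had 15.5%. At Slc2a13, a myo-inositol transporter gene, HFD male 4 had 22.5%, RD male 2 had 14% and RD female 3 had 10.8%. At the tile shared by Gpr27, an orphan receptor gene, and Eif4e3, a cap-binding protein gene, RD female 1 had 21.1% and RD male 2 had 19.13%. At Nacc2, a BTB-domain repressor gene, RD female 1 had 26.0% and the other RD mice 0.150% to 0.603%. RD female 1 was thus among the raised mice at 3 of these 5 tiles, and HFD male 4 and RD male 2 at 2 each.

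Within the Nacc2 tile the excursion was largest in 1 of the blocks of sites on either side of its widest gap. Over the 29 sites at chr2:26122555-26122693, RD female 1 averaged 36.3%. Over the 15 sites at chr2:26122804-26122878, 12 of them in the promoter printed above, the same mouse averaged 5.86%, still the highest of the 12 mice. The HFD mice had 0.346% to 4.94% in that block. Neighbouring sites in a block can lie on the same reads, which the table does not show.

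No member differed by maternal diet after adjustment. limma was fitted to all 38449 tiles of 3 or more sites, on the log2 ratio of methylated to unmethylated with diet and sex as terms, and p-values were adjusted by Benjamini-Hochberg over those tiles with a threshold of 0.05. Of all tiles 8 passed for diet (0.0208%) and of the 3751 members 0. At an unadjusted p under 0.05 there were 169 members (4.51%), against 6.93% of all tiles, and 136 of them were higher in HFD (3.63% of members, against 3.54% of all tiles). The median difference in a member was 0.0965 points, from -1.41 at the 5th percentile to 1.97 at the 95th. Of the members, 2113 (56.3%) had a higher mean in HFD, as did 58.3% of the unmethylated tiles away from gene ends. When each mouse was centred on those other unmethylated tiles, 85 of 148 members with an unadjusted p under 0.05 were higher in HFD (57.4%, against 80.5% without centring). Of all tiles with an unadjusted p under 0.05, 33.7% were higher in HFD with centring (911 of 2703, 7.03% of tiles) and 51.1% without it. The direction also turned on 1 mouse: without RD male 1, 98 of 187 members with an unadjusted p under 0.05 were higher in HFD (52.4%, against 1120 of 2647 among all tiles, or 42.3%), and 50.3% of members had a higher estimate in HFD, against 56.4% with it. The number lower in HFD was 33 over all mice (0.880% of members, against 3.39% of all tiles). It was 89 without RD male 1 (2.37%, against 3.97%), 16 without HFD male 2 (0.427%, against 3.28%), 17 without HFD female 3 (0.453%, against 3.19%) and 21 without RD male 2 (0.560%, against 2.68%). The HFD and RD mice did not overlap in 20 members (0.533%), against 0.577% of all tiles; 18 of the 20 were higher in HFD (0.480%, against 0.268% of all tiles).

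The members with the smallest p for diet were low tiles in which every HFD mouse was at 1.30% or more and most RD mice were nearer 0. At the tile shared by Mcm8, a helicase gene of recombination repair, and Trmt6, a tRNA methyltransferase subunit gene (chr2:132816145-132816285, 11 sites), the HFD mice had 1.30%, 3.53% and 4.82% as lowest, median and highest. The RD mice had 0%, 0.338% and 0.479%, so the groups did not overlap. The log2 ratio was 0.67 ± 0.11 (SE) higher in HFD, with an adjusted p of 0.0959 from limma. Most of the difference lay in the 2 sites at chr2:132816145-132816147, where the HFD mice had 5% to 16.7% and the RD mice 0% to 2%. Over the other 9 sites the diets overlapped, with 0.323% to 2.56% in HFD and 0% to 0.579% in RD. With every site that had a value the log2 difference was 0.44 (limma adjusted p = 0.415). At Nckap1, a subunit gene of the WAVE complex that drives actin branching (chr2:80581532-80581605), the HFD mice had 4.70%, 6.69% and 9.86%. The RD mice had 0%, 0.916% and 4.11% there, which left a narrow gap between the groups (log2 difference 1.0 ± 0.17, limma adjusted p = 0.128). Neither passed the threshold.

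Another 3 tiles followed with the same direction. At Vti1a, a SNARE gene, and Zdhhc6, a palmitoyltransferase gene, the HFD mice had 2.36%, 3.54% and 6.57% and the RD mice 0.358%, 0.636% and 1.46% (limma adjusted p = 0.195). That difference lay in the 12 sites at chr19:55315614-55315811, with 3.49% to 9.72% in HFD and 0% to 2.02% in RD. Over the other 7 sites the diets overlapped, at 0.0812% to 1.32% in HFD and 0.132% to 1.36% in RD. At Ogfr, the opioid growth factor receptor gene, the HFD mice had 1.62%, 2.75% and 4.43% and the RD mice 0.0909%, 0.424% and 1.25% (limma adjusted p = 0.258). Over the whole tile neither had an overlap between the diets. At the end shared by Rogdi and Glyr1, the latter a nucleosome-binding protein gene, the HFD mice had 4.05%, 6.50% and 8.61%, and 4 of the RD mice were at 0 while RD female 2 had 5.83%. That mouse lay inside the HFD range (limma adjusted p = 0.275), and without it the adjusted p was 0.00542. At Mcm8 and Trmt6 the adjusted p was 0.0402 without HFD female 4, the lowest HFD mouse there.

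No member differed by sex after adjustment either. Of all tiles 4 passed (0.0104%) and of the members 0, with 193 members at an unadjusted p under 0.05 (5.15%, against 5.46% of all tiles). Of those, 172 were lower in females (4.59% of members, against 3.39% of all tiles); with the centring on other unmethylated tiles 61 of 159 were higher in females, against 1484 of 2275 among all tiles (5.92% of tiles). The count at that p turned on the RD males. It was 378 without RD male 1 (10.1%, against 7.28% of all tiles), and 359 of those were lower in females (9.57% of members, against 5.36% of all tiles). Without RD male 2 it was 127 (3.39%, against 4.76%). At Rpap1, which encodes a protein bound to RNA polymerase II (chr2:119787515-119787588, 11 sites), the females had 0%, 0.535% and 3.91% as lowest, median and highest. The 5 males had 7.98%, 13.1% and 8.48% in HFD and 11.8% and 4.96% in RD, all above every female. The difference was -8.11 points and -1.31 ± 0.21 on the log2 scale, with a limma adjusted p of 0.204. In the Rpap1 sequence above, the 8 measured CpGs averaged 4.02% to 6.06% each, so the level was even along the block. Galnt12 (female median 1.28%, male 5.55%), Qars (0.691% and 2.65%) and Ovol2 (1.87% and 4.22%) each had a limma adjusted p of 0.837. The sexes did not overlap at Qars and Ovol2, and at Galnt12 the highest female (2.71%) was above the lowest male (2.57%). They encode a transferase that starts O-glycans, the glutaminyl-tRNA synthetase and a zinc finger factor of epithelia. The E2f1 tile, at a cell-cycle factor gene, had an adjusted p of 0.837 from limma as well, with a female value of 6.31% inside the male range. Members did not overlap between the sexes in 10 cases (0.267%), against 0.270% of all tiles.

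The diet difference itself differed between the sexes in 1 member, at Copb2, a subunit gene of the COPI vesicle coat. It was the only 1 of the 38449 tiles to pass in the interaction test (0.0026%), and 151 members had an unadjusted p under 0.05 (4.03%, against 5.13% of all tiles). Over its 11 sites (chr9:98563552-98563679) RD males 1 and 2 had 8.93% and 10.9%. The 4 RD females were all listed at 0, the HFD females had 0%, 0.283% and 0%, and the HFD males 0.589%, 0.638% and 0%. The diet difference in females minus that in males was 1.63 ± 0.16 on the log2 scale (limma adjusted p = 0.0189). It rests on 2 mice, and leaving out single mice or changing settings ended the call in 12 of 21 alternatives, with adjusted p-values from 0.00239 to 0.314. The smallest of these is without RD male 1, which leaves 1 RD male. On the log2 scale with the main offset the difference was 1.52 to 1.73 over the alternatives. Of the 151 members, 41 were positive (27.2%), against 44.5% of all tiles at that p. Without RD male 1 the balance among such members turned to positive, in a fit that leaves 1 RD male.

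Along the Copb2 promoter printed above, the methylation of the RD males sat in the block nearest the start. At positions -82 to -53, counted in bases from the start, the 5 measured CpGs had 12.5% to 21.4% in RD male 1 and 15% to 20% in RD male 2. At positions -133 to -114, RD male 2 had 4.44% to 6.67% and RD male 1 was at 0. At the CpG at position -180 all 12 mice were at 0. In HFD male 3 the CpG nearest the start had 7.02% and the others 0. Values recur exactly from CpG to CpG within a mouse, such as 21.4% at 4 of the 5 in RD male 1; neighbouring sites can lie on the same reads.

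The next members in that test did not pass. At the start shared by Phf7 and Bap1, a testis ubiquitin ligase gene and a deubiquitinase gene, HFD males 2, 3 and 4 had 8.41%, 10.8% and 6.45%. All other mice there were at 1.74% or less (interaction -1.47 ± 0.25 on the log2 scale, limma adjusted p = 0.677). At Mul1, a mitochondrial ubiquitin ligase gene, the RD males had 4.01% and 3.08% and all others 1.95% or less (limma adjusted p = 0.677). Both patterns are a few percent in 2 or 3 mice of 1 group. Obi1, with 4.41% and 5.20% in RD males and up to 9.99% in HFD females (limma adjusted p = 0.677), and 9430015G10Rik (adjusted p = 0.834, limma) varied more within groups.

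**Figure D4:**
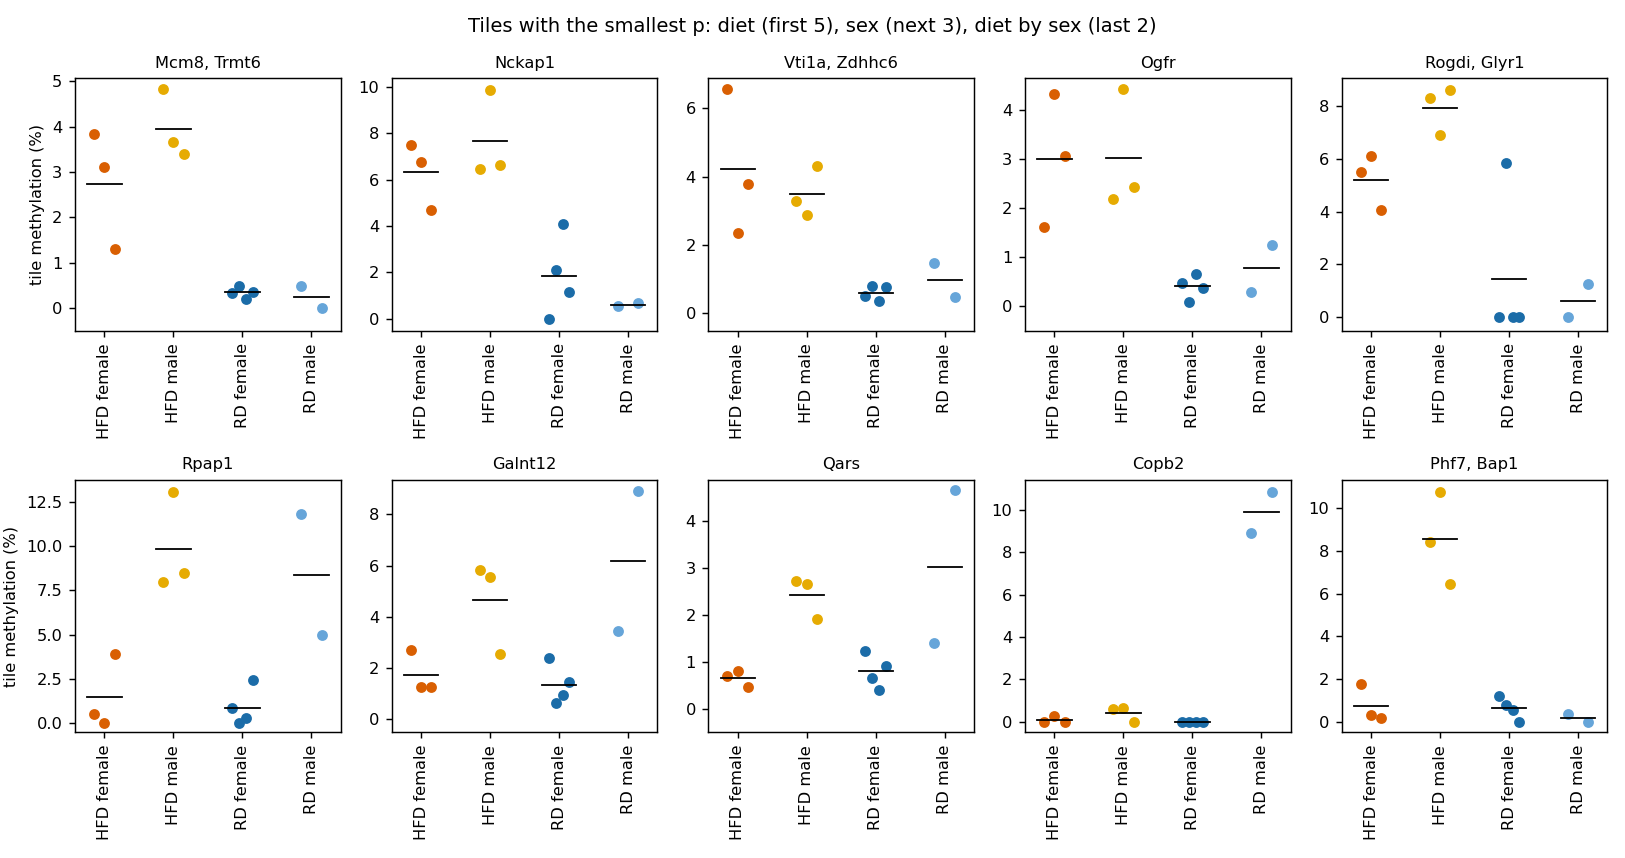
Methylation (%) in each mouse at 10 member tiles, by diet and sex, with a line at each group's mean: the 5 with the smallest p for diet, the first 3 for sex and the first 2 for the interaction. At Mcm8 and Trmt6 every HFD mouse is at 1.30% or more and every RD mouse at 0.479% or less, and at Copb2 only the 2 RD males are above 0.638%.

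Gene groups differed in how often their dense ends were unmethylated. The lists were put together from known functions, no test was made of these shares, and the share for all genes was 3681 of 4129 (89.1%). Every measured gene of the proteasome (6 of 6), of the nuclear-encoded respiratory chain (15 of 15) and of the DNA methylation machinery (6 of 6) had an unmethylated tile. Among ribosomal protein genes 15 of 17 had one, with a median level of 0.855% against 1.43% over all members. Rpl29, Rpl36 and Cox4i1, a cytochrome oxidase subunit gene, had 0.633%, 0.653% and 0.899%. Rps13 (5.86%) was over the limit. The highest member of the respiratory chain was Atp5h, at 4.27%, with 2.99% ± 2.35 in HFD and 5.55% ± 5.67 in RD (SD, n = 6 each). Tet1, which oxidises methylcytosine, had 3.94% ± 2.44 in HFD and 1.71% ± 1.28 in RD, with a limma adjusted p of 0.754, and Uhrf1, which guides maintenance methylation, 0.944% over all mice.

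Developmental genes, many of them known for roles outside the heart, were mostly unmethylated too. Of 50 measured homeobox and paired-box genes 44 had an unmethylated tile, with a median of 1.93%. Hoxd13, a gene of the distal limb, had tiles of 1.54% (36 sites) and 3.28% (11 sites), and Barhl2 and Gbx2, genes of the developing nervous system, had 3 and 2 member tiles from 1.12% to 3.79%. Tlx3 was the highest at 4.70%. Cardiac transcription factor genes had an unmethylated tile in 9 of 11, among them Isl1 (0.918% and 1.61%), a factor of heart progenitors, and Myocd (2.73% and 2.29%), the myocardin gene of muscle. Irx5 was the highest of them, at 4.67%. The exceptions were Tbx2 at 9.22% and Hopx, a regulator of cardiomyocyte maturation, at 57.8%.

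Metabolic and signalling genes lay near the general share. Fatty acid oxidation genes had an unmethylated tile in 8 of 9, with Ppara (1.997% and 1.86%), the fatty-acid-sensing receptor gene, and Mlycd (1.04%), the malonyl-CoA decarboxylase gene. The exception was a gene of fatty acid synthesis in that list, Acaca, at 5.66%. Insulin and IGF signalling genes had one in 13 of 14, with Foxo1 at 0.660% and 0.438%. CpG island binding and chromatin genes had one in 15 of 16, with Pcgf6 at 1.35% and 0.789%, and Kmt2b above the limit at 9.61%. Igfbp2 was the highest insulin and IGF member at 3.10%, with 3.09% ± 0.525 in HFD and 3.11% ± 0.598 in RD (SD, n = 6 each).

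Germline, imprinted and inflammation genes fell below the general share. Only 3 of 11 measured germline genes had an unmethylated tile, namely Tex15 (2.73%), Mei1 (1.70%) and Syce2 (1.66%). The others ran from 59.0% at Smc1b, a meiotic cohesin gene, to 95.2% at Dazl, an RNA-binding factor of germ cells. Ddx4, the Vasa helicase gene, had 75.1%. Imprinted genes had one in 8 of 16, with Grb10 (2.80%) and Phlda2 (2.13%) inside. Those outside included Nnat (52.2%), Plagl1 (59.5%) and the tile shared by Peg10 and Sgce (63.2%). Of the inflammation genes, Irf1 (2.97%), Nfkb1 (0.454%) and Rela (1.89%) were in the 5 of 9 with an unmethylated tile. Nfkb2, at 91.4%, and Tgfb1, at 41.6%, were not, and Tlr2 (5.88%) and Cxcl12 (6.41%) lay just over the limit. A tile at the end of a gene need not be at its start, so these levels are of the measured end. No unmethylated tile of a list passed for diet (0 in each, limma with Benjamini-Hochberg adjustment), with 0 or 1 of each list at an unadjusted p under 0.05. Lists with a member held 2 to 60 member tiles, and 4.51% of all members and 6.93% of all tiles were at that level. Outside the limit, 1 of 2 tiles of the imprinted gene Zrsr1 (chr11:22972500-22972993, 31 sites) passed (limma adjusted p = 0.0397). Its level was 58.7% ± 4.11 in the 6 HFD mice against 75.5% ± 3.04 (SD) in the 6 RD mice. It is named because it passed. The call ended in 12 of 21 alternatives, 11 of them with 1 mouse left out, and the limma adjusted p ran from 0.0138 to 0.617, with the direction the same in each.

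**Figure D5:**
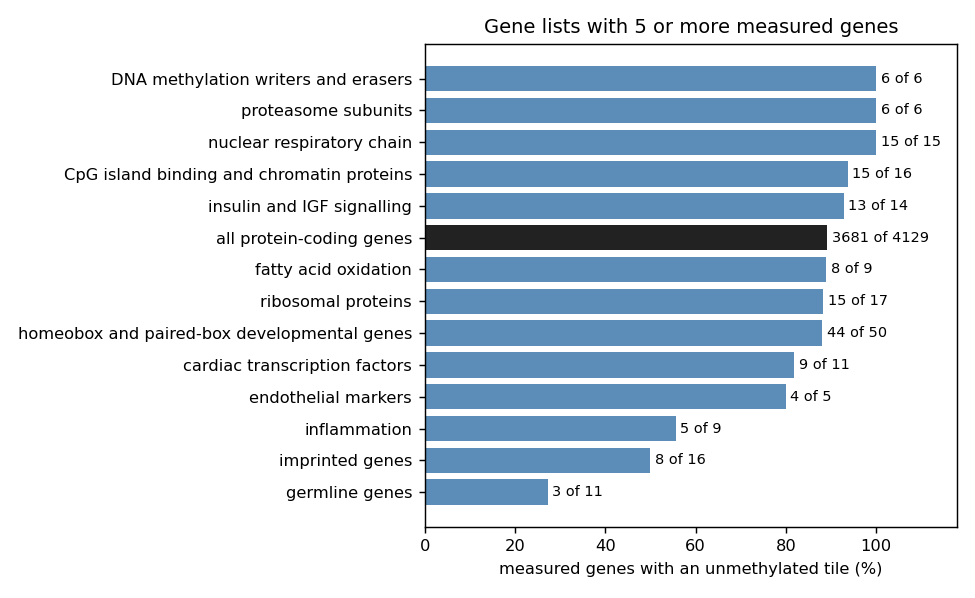
Share (%) of the genes with a dense measured end that had an unmethylated tile, for lists with 5 or more such genes, with the counts beside each bar and all protein-coding genes in black. Germline (3 of 11), imprinted (8 of 16) and inflammation genes (5 of 9) lie below the 89.1% of all genes.

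Markers of the heart's cell types gave little to place the tissue with, since few had measured ends. Of the cardiomyocyte markers, Nkx2-5 averaged 3.61% over 21 sites at its ends, Myh6 69.2% over 8 sites and Tnnt2 48.3% over 4 sites. Myh6 encodes the main adult ventricular myosin of mice. The endothelial marker Esam had 27.3% over 5 sites, and the other markers of endothelial cells, fibroblasts and leukocytes had no tile of 3 or more sites at an end. Of the sarcomere genes with dense ends, Des (3.28%, 33 sites), the desmin gene, and Tpm1 (1.37%, 26 sites), a tropomyosin gene, were both members. Endothelial genes of the wider list had an unmethylated tile in 4 of 5, with Flt1 at 0.838% and Sox18 at 3.03% and 2.51%, and fibroblast genes in 3 of 3, with Col5a1 at 0.877%. Leukocyte and olfactory receptor genes had no dense measured end. Bulk tissue mixes these cell types, and a few percent in all cells cannot be told apart from high methylation in a small share of them.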

How the data were processed

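The deposited table gives the methylation percent of each cytosine in a CpG for each of 12 mice, as the authors computed it, with no read counts; depth per site is therefore unknown, and no counting interval is given. The submitters' processing notes name FastQC, Trim Galore, Bismark 0.19, limma and the build mm10. Autosomal sites with a value in all 12 mice were averaged in 500 bp tiles; this left out 8405 of 68956 listed sites in the members (12.2%). Gene ends came from RefSeq on GRCm38.p6, the same coordinates as mm10; of 34148 sites in promoter windows, all but 5 fell on a CpG. Strand was matched for 16457 of 20665 genes. Tile rates were tested with limma 3.58.1 in R 4.3.3 (trend, two-sided) as log2((rate + 0.05)/(1 - rate + 0.05)), over 38449 tiles of 3 or more sites with Benjamini-Hochberg adjustment at 0.05. Differences on that log2 scale are smaller than differences of unshifted logs near 0. Residual SDs are within diet and sex groups.

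Named genes are, per test, members past the threshold and otherwise the 5 smallest p; the 5 tiles on each side of the limit, the 5 with the most sites, the 3 lowest, the 5 most variable, the 5 highest sites, and per list the genes with the most sites and the highest mean. The members and lists were chosen with earlier results of these data known. On simulated data, 61% of 200 tiles shifted by 5 points were recovered for diet and 63% for sex. Of 200 shifted by 2 points, 0 were recovered for diet and 5 for sex. The 200 tiles were shifted together, which eases the Benjamini-Hochberg threshold for each of them. These shares therefore do not hold for a tile that differs alone. Genes on chromosome X and Y were left out. Alternatives were other offsets, scales, filters, limits and each mouse left out; centring was added after seeing the data. A few named items are not reported here.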

Additional observations from a re-analysis of the deposited data

Results flagged for a closer look

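In 42 groups of 5 to 7 mice examined (levels over the members, and the tiles named for diet, sex and spread), 8 had a mouse far from the others by Dixon's criterion. Chance gives about 1 in 20 groups, or 2.1 here, and the tiles named for their spread were chosen for such values. At Rogdi and Glyr1, RD female 2 had 5.83% and the other RD mice at most 1.26%. At E2f1, RD female 1 had 6.31% and the other females at most 2.76%. At Tmtc1, HFD male 4 had 13.03% with the other HFD mice at most 5.11%, and RD female 1 had 25.9% with the other RD mice at most 2.38%. At 2210016F16Rik, HFD male 3 had 15.5% with the other HFD mice at most 5.07%, and RD female 2 had 27.2% with the other RD mice at most 4.50%. At Slc2a13, HFD male 4 had 22.5% and the other HFD mice at most 6.01%. At Nacc2, RD female 1 had 26.0% and the other RD mice at most 0.603%. RD female 1 appears in 3 of the 8.

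The effect of diet differed between the sexes at Copb2, by 1.63 on the log2 scale (limma adjusted p = 0.0189), with 2 RD males apart from the other 10 mice. The call ended in 12 of 21 alternatives, with a limma adjusted p of up to 0.314.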

How the results depend on the processing

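The diet count of 0 held under every alternative tried except leaving out 1 mouse, where it ranged from 0 to 1, and the sex count was 0 under all of them. The single interaction call, Copb2, was 0 with an offset of 0.01, 0 without the trend and 0 with the replicate number as a block; leaving out mice gave 0 to 23, the 23 (0.613% of members, against 62 of all tiles, or 0.161%) being without RD male 1, which leaves 1 RD male whose spread is assumed to be that of the other groups. Among females, pairs with the same number correlated at 0.023 to 0.0434 and those with different numbers at -0.0507 to 0.0341. The male pair with the same number was at -0.0318, and the values of the RD males mirror each other because that group has 2 mice. All correlations were weak, and whether the numbers mark a pairing cannot be told from them. Under the replicate block the diet and sex counts were 0 (127 and 194 members at an unadjusted p under 0.05, or 3.39% and 5.17%, against 5.94% and 5.81% of all tiles). None of the 15 named tiles changed direction. The HFD minus RD difference of the mean was 0.0436 to 0.293 points with a mouse left out. The number of unmethylated tiles was 7492 with 5 or more sites, 869 with 20 or more, 3777 with tiles shifted by 250 bp, 2627 under 2% and 4031 under 10%. Read depth is unknown. Of 200 simulated shifts of 2 points, 0 were recovered in the diet test and 5 in the sex test, so a tile that passed neither may still differ by that much.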
